A study of Drosophila melanogaster with 2 samples.

Results

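Of the 2632 regions bound by the danr-eGFP fusion protein on the 7 main chromosomes (X, Y, 4 and the arms 2L, 2R, 3L and 3R), 482 lay in an intron at a moderate distance from a start site. They were taken from the thresholded peak list of both replicates together by position alone. Overlapping peaks were merged to a region, and the peak of highest signal gave its summit. A region was kept where the summit lay more than 500 and up to 2500 bp from the nearest annotated transcript start of any gene, inside a gene and in no annotated exon. Only the summit had to avoid exons, and 47 of the 482 regions (9.75%) touched an exon elsewhere along their length. Counting every scaffold of the assembly, the list held 2653 regions. The 482 regions made up 18.3% of the 2632, with a 95% exact binomial interval of 16.9 to 19.8%. All such intervals below treat regions as independent and cover counting error only, although neighbouring regions can share an intron.

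The study was a chromatin immunoprecipitation with sequencing (ChIP-seq) on whole Drosophila melanogaster embryos, 0 to 24 h old, of the strain danr-GFP. All embryos carried a transgenic danr-eGFP fusion, which was precipitated, by the samples' description, with an antibody against GFP. Their antibody field names danr. There were 2 biological replicates in 1 group, with 1 technical replicate each, and no other genotype, stage or treatment. The promoter that drives the fusion is not given in the sources used here, and the embryos mix all embryonic stages and cell types, so that binding in few cells and weak binding in many cannot be told apart. Peak lists hold no expression values, so the labelled tissue could not be checked against marker genes.

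danr (distal antenna-related) encodes a DNA-binding nuclear protein of the pipsqueak-domain type and, with its neighbour dan, is known from the development of the antenna and eye. Introns of fly genes, and long first introns above all, often hold enhancers and also alternative promoters, from which shorter or longer transcripts of the same gene start. A region in an intron near a start site can therefore lie between alternative starts of its own gene, or beside the start of a gene nested in it.

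Uninterrupted stretches of A and T under the summits varied among the 20 strongest regions. The longest in each 101-base window ranged from 6 bases in CG9663 and mub to 20 in CG12769, with 8 in HmgZ, Adf1 and Trl. The median was 10 over all 482 regions and 8 over weaker peaks that met the same position rule. The windows below are 101 bases centred on the summit, on the + strand of dm6, read from the RefSeq copy of that assembly. The regions of CG11050, Trl, CG32772, Tlk, CG3726 and CG9837, all strong, and CG9663, a strong one with a low share of A and T, are shown for the A/T runs, which are in capitals where they span 6 bases or more. The other windows of the 20 strongest, among them those of HmgZ, Adf1, CG12769 and KCNQ, are not printed. That of mub, also not printed, had a lower share of A and T than CG9663, at 51.5%. Hr4 is shown because its window had the lowest share of A and T among all 482.
CG11050, chr2L:6612653-6612753: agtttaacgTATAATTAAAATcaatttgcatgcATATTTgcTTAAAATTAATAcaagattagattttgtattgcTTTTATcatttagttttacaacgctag
Trl, chr3L:14759458-14759558: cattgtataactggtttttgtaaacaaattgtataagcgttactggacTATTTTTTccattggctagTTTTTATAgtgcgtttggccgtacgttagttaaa
CG32772, chrX:4910308-4910408: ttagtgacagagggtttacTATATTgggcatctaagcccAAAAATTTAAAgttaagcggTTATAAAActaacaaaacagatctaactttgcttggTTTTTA
Tlk, chrX:3742178-3742278: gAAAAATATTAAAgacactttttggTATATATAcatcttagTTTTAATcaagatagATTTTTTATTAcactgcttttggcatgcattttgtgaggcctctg
CG3726, chrX:5918866-5918966: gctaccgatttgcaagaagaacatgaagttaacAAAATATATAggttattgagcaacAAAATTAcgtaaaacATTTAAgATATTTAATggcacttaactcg
CG9837, chr3R:8811617-8811717: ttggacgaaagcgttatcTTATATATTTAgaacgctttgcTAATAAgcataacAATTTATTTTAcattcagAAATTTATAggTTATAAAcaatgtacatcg
CG9663, chr2L:3302154-3302254: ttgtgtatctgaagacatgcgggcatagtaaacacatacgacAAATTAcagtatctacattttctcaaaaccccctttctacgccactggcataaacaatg
Hr4, chrX:1953093-1953193: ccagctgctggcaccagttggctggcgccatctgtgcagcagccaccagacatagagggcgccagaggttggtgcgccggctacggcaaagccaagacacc
The window of CG11050 was 77.2% A and T, with a longest run of 12 bases. That of CG9663 was 60.4% A and T, with a longest run of 6 bases, and that of Hr4 was 34.7%, with a longest run of 3 bases.

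Signals spanned a wide range. The signal is the authors' own enrichment value per peak and was used to describe and rank regions within a list. In the pooled list the 482 regions had a median signal of 81.2, with quartiles of 61.2 and 126 and a highest value of 1304. The median was 91.2 over the 1224 regions with a summit within 500 bp of a start (promoter regions), 74.6 over the 499 intronic regions more than 2500 bp away (far intronic regions), and 83.0 over all regions. The near-start intronic regions thus held a middle place. They made up 3 of the 10 strongest regions of the series, 8 of the 50 strongest and 47 of the 250 strongest, beside their share of 18.3% in the whole list.

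The strongest of them lay in CG11050, with a pooled signal of 1304, and was the region of rank 2 in the whole series. Replicate 1 gave 728 there and replicate 2 gave 566. The summit lay 1016 bp downstream of a start of CG11050, in an intron of 140 bp. The region as a whole, from 6612547 to 6612883 on 2L, was longer than that intron. Next came HmgZ, one of a pair of genes for HMG-box chromatin proteins, at 862 in the pooled list, with 344 in replicate 1 and 506 in replicate 2. That summit lay in an intron of HmgZ and inside HmgD at once, so it counts for both genes. The region in Adf1, which encodes a DNA-binding protein with a MADF domain, had 806 in the pooled list, 289 in replicate 1 and 533 in replicate 2. Trl encodes GAGA factor, a DNA-binding protein of the trithorax group, and its region had 706 in the pooled list, 369 in replicate 1 and 336 in replicate 2. The order of these 4 regions differed between the replicates. Adf1 was lower than Trl in replicate 1 and higher in replicate 2.

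The next strongest had 641 in CG32772 (343 and 288 in replicates 1 and 2) and 544 in Tlk (327 and 212). Tlk encodes Tousled-like kinase, which acts in chromatin assembly. Further down the list of 20 strongest were NFAT, a transcription factor gene, at 411 (216 and 193), and norpA, which encodes the phospholipase C of phototransduction, at 408 (220 and 188). The region in the potassium channel gene KCNQ had 414 (186 and 218), and its nearest start belonged to another gene, mlt. chif, related to the replication factor gene Dbf4, had 398 (236 and 165), and Raf, the kinase that follows Ras, had 354 (173 and 178). The region of rank 20 lay in the forkhead gene CHES-1-like, at 320 (199 and 118). All 20 were in the thresholded list of each replicate, 17 of them lay in a first intron, and 9 were on chromosome X.

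**Figure D1:**
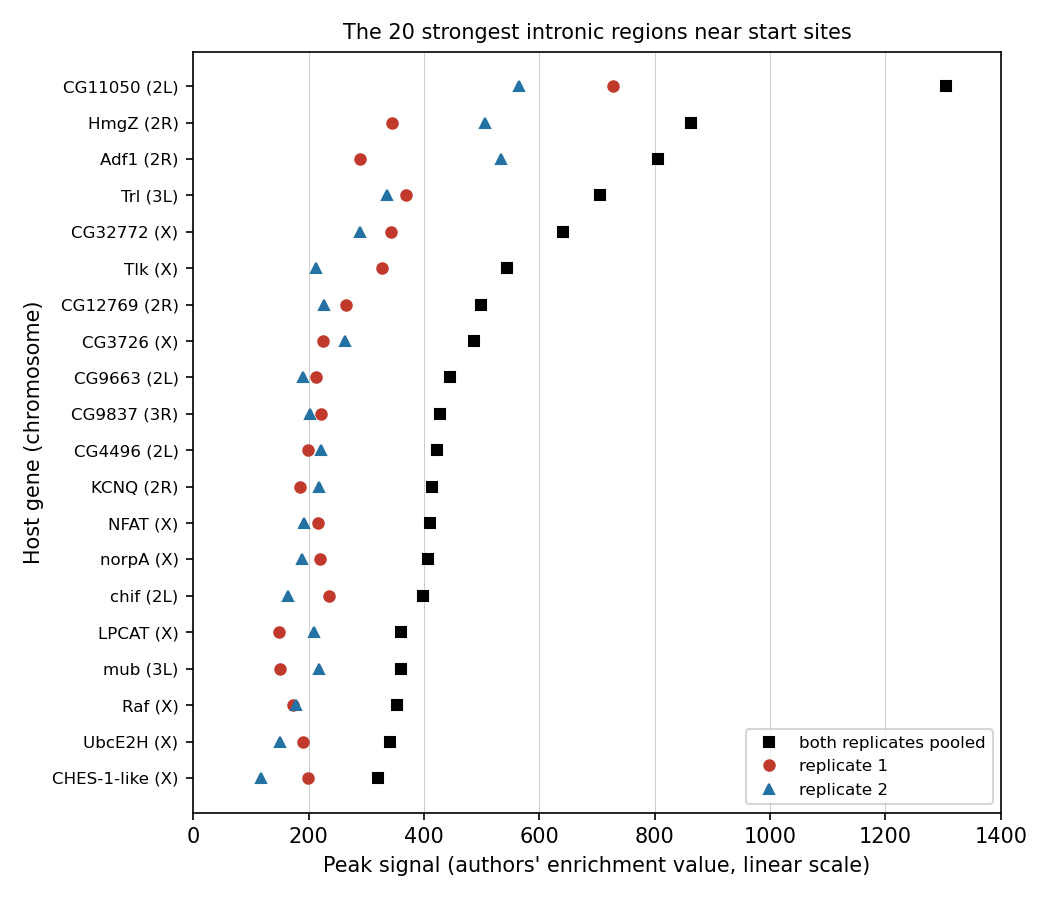
Signal of the 20 strongest near-start intronic regions (authors' enrichment value, horizontal axis), named by host gene, in the pooled list and in replicate 1 and replicate 2. Each point is 1 region in 1 list. CG11050 stands highest at 1304 in the pooled list, and the lowest replicate values among the 20 are 148 in replicate 1 and 118 in replicate 2.

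At the other end of the list, the lowest signal was that of a region in CG42390, at 3.96 in the pooled list. It had 35.1 in replicate 1 and no ranked peak in replicate 2, yet its score in the pooled list was 1000, the highest possible. The score derives from the irreproducible discovery rate (IDR), which tells how far the ranks of peaks repeat. The lowest score kept by the authors, 830, stands for an IDR of 0.010. The second lowest signal was 29.8, in the scaffold protein gene dlg1, with 22.5 in replicate 1 and 27.5 in replicate 2. A score of 1000 was given to 391 of the 482 regions.

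Replicate by replicate, 291 of the 482 regions (60.4%) overlapped a peak of replicate 1's own thresholded list, where the share over all regions was 58.8%. For replicate 2 the share was 52.1%, against 56.2% over all regions. Both lists held 191 (39.6%, interval 35.2 to 44.1%), against 40.2% over all regions, 45.2% of promoter regions and 34.1% of far intronic regions. The share was thus close to the background. A further 100 regions were in replicate 1's list alone and 60 in replicate 2's alone, and 131 were in neither. The conservative list held 360 (74.7%), against 75.0% over all regions.

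Strength and presence in both lists rest on the same reads and went together. Split by pooled signal into 4 equal parts from low to high, 0%, 5.83%, 55.8% and 96.7% of the near-start intronic regions were in both replicates' lists. In the ranked lists, which also hold peaks below the threshold, 480 regions had a peak in replicate 1 and 462 in replicate 2. The median signal was 44.4 in replicate 1 and 40.4 in replicate 2. Over the 460 regions with a value in both, the replicates' signals had a Spearman rho of 0.63 and a Pearson r of 0.72 on the log2 scale, given as a description since the regions share 2 libraries. The ratio of replicate 1 to replicate 2 had a median of 1.15, with quartiles of 0.868 and 1.56, and 85.7% of the 460 were within 2-fold. The median ratio was 1.01 over promoter regions and 1.08 over far intronic regions.

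A few regions were far from even. In CG11353 the signal was 47.6 in replicate 1 and 4.63 in replicate 2, a ratio of 10.3. SCaMC, a mitochondrial carrier gene, had 88.6 and 18.2, and larp, which encodes a La-related RNA-binding protein, had 87.6 and 19.3. All 3 were in the thresholded list of replicate 1 and not in that of replicate 2. On the opposite side, beat-VII had 11.7 in replicate 1 and 45.4 in replicate 2, and Hr4, a nuclear receptor gene, had 23.5 and 70.4. The cyclic GMP-dependent protein kinase gene for had 16.5 and 45.7. These were in replicate 2's list and not in replicate 1's. Of these 6 regions, that of Hr4 was in the conservative list and the others were not.

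**Figure D2:**
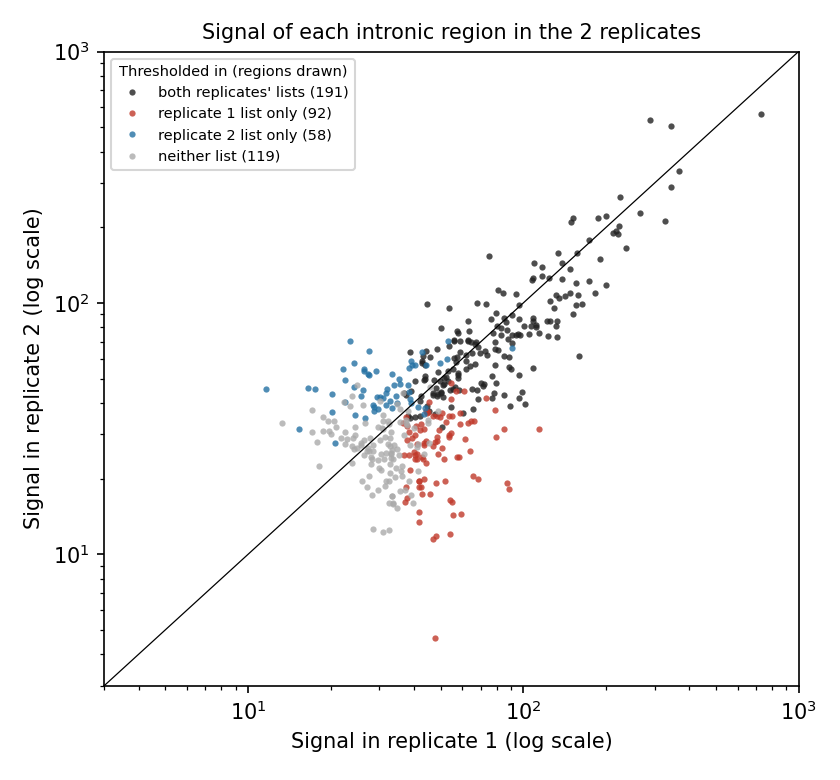
Signal of each near-start intronic region in replicate 1 (horizontal axis) and replicate 2 (vertical axis), both on log axes, for the 460 regions with a ranked peak in both. Each point is 1 region, marked by which replicates' thresholded lists hold it. Most points lie near the line of equal signal, with CG11353 far to the replicate 1 side at 47.6 and 4.63.

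Most of the 482 regions lay in first introns and nearest a start of their own gene. An intron counted as first if it was the first of any annotated transcript of a host gene. The summit lay in a first intron in 396 (82.2%, interval 78.4 to 85.5%), against 57.7% of far intronic regions. Ranked peaks of the pooled list with a score under 830 that met the same position rule (14038 peaks, called sub-threshold peaks here) were in a first intron in 63.4%. The position rule does not name a first intron, but a summit near a start is more often in one, and the sub-threshold peaks share that feature. Signal hardly differed by intron. The median was 82.4 in first introns and 79.1 in other introns.

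The nearest start belonged to the host gene itself in 405 regions (84.0%), against 64.9% of far intronic regions and 69.2% of sub-threshold peaks. In 277 of the 405 the summit was downstream of that start, and in 128 (31.6%) upstream of it, where it can lie only if the gene has a start farther upstream. The median signal was 87.6 for those upstream and 81.2 for those downstream. In 253 of the 405 (62.5%) the nearest start was not the most upstream start of its gene, against 58.0% of far intronic regions and 57.5% of sub-threshold peaks. Of protein-coding host genes, 72.9% had 2 or more annotated start sites. The share was 57.6% over protein-coding genes of at least 10000 bp and 26.5% over all protein-coding genes. The position rule itself favours genes with several starts, because each further start can bring more intron within its distance limits. No share is given for the hosts of sub-threshold peaks, so whether danr hosts exceed this effect of the rule was not tested. The other 77 regions lay in one gene and nearest the start of another.

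The introns were long, with a median of 5790 bp and quartiles of 2373 and 13266 bp. Sub-threshold peaks had a median intron of 5642 bp, and far intronic regions 15830 bp. An intron under 500 bp held the summit in 15 regions (3.11%), against 10.9% of sub-threshold peaks. The strongest near-start intronic region, with its summit in the 140-bp intron of CG11050, was one of the 15. Distances to the start leaned to the near side. By steps of 500 bp outward to 2500 bp the counts were 197, 131, 88 and 66, which is 40.9% in the nearest step against 30.6% of sub-threshold peaks, and 13.7% in the farthest step against 19.5%. The median signal per step was 82.3, 84.1, 86.6 and 70.5.

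At the inner limit of the rule, the regions just inside were those of CG5854 at 502 bp (signal 67.2), Sur-8 at 505 bp (77.8) and Fim at 505 bp (76.6). Just outside lay Nost at 497 bp (66.5), tmod at 496 bp (71.4) and mats at 492 bp (98.6). At the outer limit, kay at 2496 bp had 52.2, heph at 2495 bp had 52.7 and psq at 2488 bp had 67.7, with CG1677 and CenG1A just outside at 2510 bp and signals of 112 and 51.2, and puc at 2528 bp with 61.0. The values on either side of each limit overlapped.

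**Figure D3:**
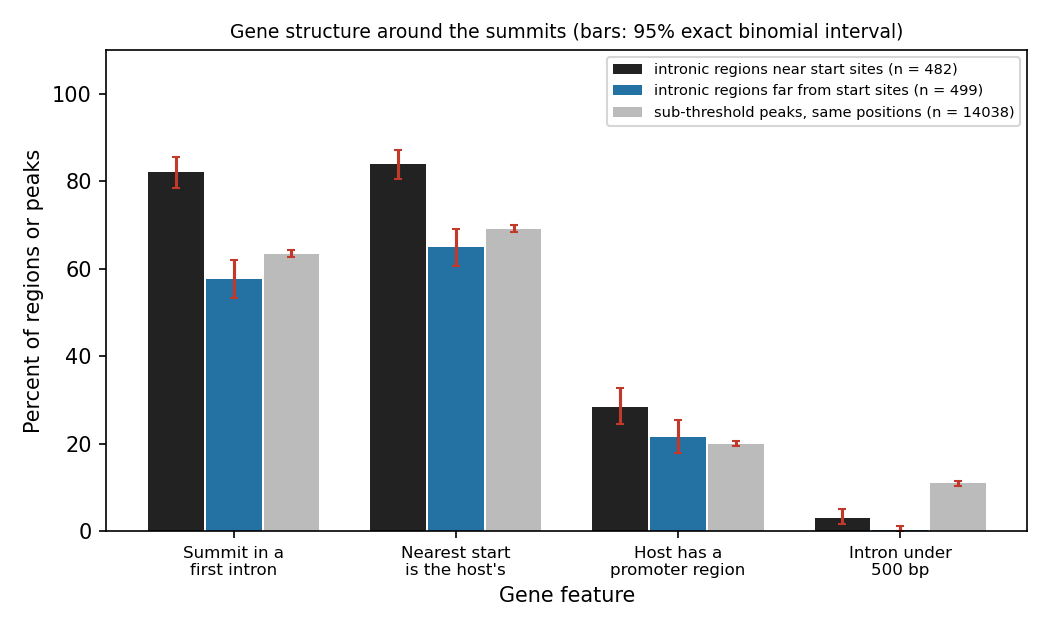
Share of regions in percent (vertical axis) by place within the gene, with 95% exact binomial intervals as bars. Shown are near-start intronic regions, far intronic regions and sub-threshold peaks that met the same position rule. The first-intron share is 82.2% in near-start intronic regions, 57.7% in far intronic regions and 63.4% in sub-threshold peaks.

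Near-start intronic regions often had company. Another summit of the list lay within 2000 bp of 151 of them (31.3%), against 19.3% of all regions. For 72 of them such a neighbour was a promoter region and for 70 another near-start intronic region. A host gene that also held a promoter region was found for 137 (28.4%), against 21.4% of far intronic regions and 20.02% of sub-threshold peaks. These shares count regions or peaks, so a gene with several counts once for each. Of genes counted once, 16.9% of protein-coding genes of at least 10000 bp and 11.2% of all protein-coding genes had a promoter region, a different unit. With each replicate's own list used alone, the share of near-start intronic regions with such a host was 20.8% in replicate 1 and 17.6% in replicate 2, so it depends on the list. Those lists are shorter, with 1637 and 1554 regions, and the shares set beside it above come from the pooled list only. The median signal of regions in such genes was 77.0, against 83.8 in the others.

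The 482 regions lay in 429 genes, of which 414 were protein-coding, 2.96% of all protein-coding genes. Counting each region for the host whose start was nearest, 334 genes had 1 region, 52 had 2 and 12 had 3 or more. CG1677 had the most, with 6 regions of signal 62.5 to 143, all nearest a start of another gene (unc-119, brk, CG42780 or CBP). CHES-1-like had 5, with signals of 215, 87.9, 133, 77.0 and 320 along the chromosome. All 5 of these were in both replicates' lists. Tlk had 5 as well, at 544, 61.8, 122, 87.1 and 126, and 3 of them were in both lists. The zinc-finger gene shn, a partner of BMP signalling, had 4, at 167, 62.0, 96.5 and 57.2. The first of these was in both lists, 1 more was in replicate 1's list, and the other 2 were in neither. psq, a BTB-domain gene whose protein shares its DNA-binding domain with danr, had 3 weak ones at 35.4, 67.7 and 62.8, none of them in either replicate's list.

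Chromosome X held 128 of the 482 regions (26.6%), against 20.3% of all regions, 17.5% of promoter regions, 27.7% of far intronic regions and 18.7% of sub-threshold peaks. X makes up 17.1% of the length of the 7 chromosomes and holds 19.0% of protein-coding genes of at least 10000 bp. Taking the rule to each replicate's own thresholded list gave 313 regions in replicate 1 and 261 in replicate 2, with 29.1% on X in each, against 20.8% of all regions of replicate 1's list and 20.6% of all regions of replicate 2's. The median pooled signal was 88.8 on X and 80.3 on the autosomes. There were 71 regions on 2L, 87 on 2R, 84 on 3L, 112 on 3R and none on 4 or Y.

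Summits lay at local peaks of A and T content. The 101-bp windows averaged 66.9% ± 8.36 A and T (SD over 482 regions), against 57.6% in sub-threshold peaks. Promoter regions had 67.7%, far intronic regions 67.0% and all regions 66.8%, so these classes lay close together. The 72 regions with a summit in an exon had 55.6%. In a profile of 21-bp windows the mean was highest at the summit, at 68.0%, and lowest 220 bp to one side, at 54.5%. Over the same 4 parts by signal, from low to high, the mean was 64.7%, 65.3%, 67.8% and 69.7%, with an SD within parts of 6.97 to 9.57. The correlation of signal with A and T content had a Spearman rho of 0.24 over the 482 regions. The longest run of A and T had a median of 10 bases, against 8 in sub-threshold peaks. Only 19 windows were under 50% A and T, Hr4 lowest among them, while the highest was at 84.2%.

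**Figure D4:**
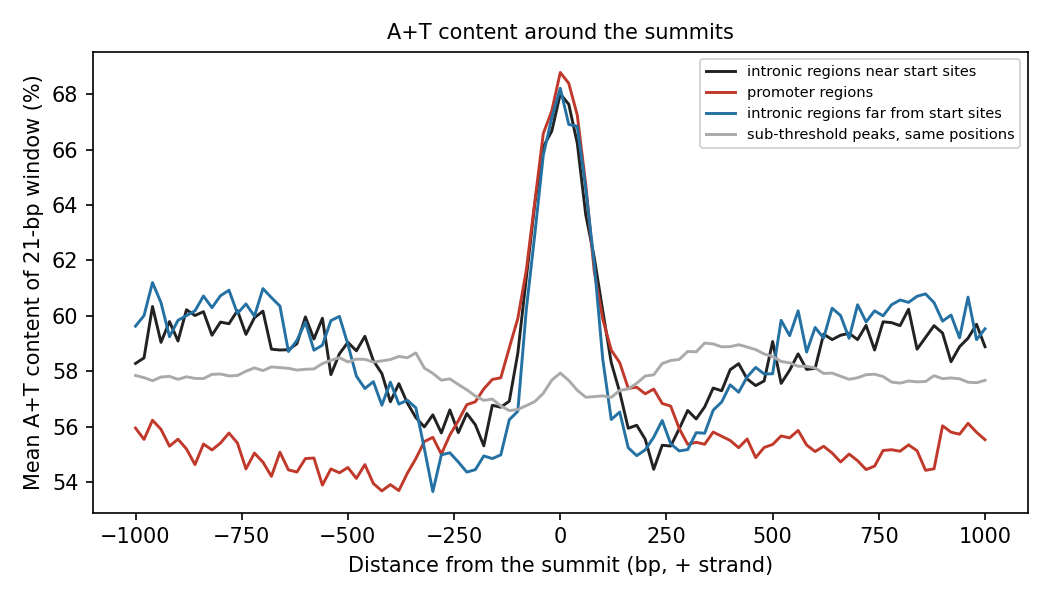
Mean A and T content in percent (vertical axis) of 21-bp windows at distances of up to 1000 bp either side of the summit (horizontal axis). Shown are near-start intronic regions, promoter regions, far intronic regions and sub-threshold peaks that met the same position rule. The near-start intronic regions reach 68.0% at the summit and 54.5% at their lowest point, 220 bp away.

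Words of 6 bases were ranked by their excess in percentage points at the summits over flanks 1000 bp away. The first 10 were all made of A and T only. This ranking favours common words. CAGTAA, outside the first 10, was in 7.88% of windows against 3.11% of flanks. It was picked out for its excess over all regions, of which 5.02% had it. TTAAAA, read on both strands, was in 34.2% of the windows, against 34.8% of all regions, 14.5% of sub-threshold peaks and 15.9% of the flanks. TATAAA, the letters of the TATA box, was in 21.6% (interval 18.0 to 25.5%), against 23.2% of all regions, 25.8% of promoter regions, 10.7% of sub-threshold peaks and 12.1% of flanks. A match describes letters in a window and does not show a site.

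Among 22 motifs searched on both strands, ACAAT, the core read by Sox-type HMG-box proteins, differed most in share from all regions, and was picked out for that. It was in 35.7% of windows (interval 31.4 to 40.1%), against 30.9% of all regions, 31.1% of promoter regions, 29.1% of far intronic regions and 24.9% of sub-threshold peaks. Copies stand in the printed windows of Trl, CG9837 and CG9663. GAGAG, the letters bound by GAGA factor, was in 10.8% of windows, against 9.08% of all regions and 14.3% of flanks. TAATTA, a homeodomain core, was in 10.8% against 9.50% of all regions. The DNA replication-related element was in 0 of the 482 windows. That allows a share of up to 0.622% by a limit of 3 counts and up to 0.762% by the exact interval. The element was likewise in 0 of 499 far intronic regions, 1 of 355 intergenic regions and 0.178% of sub-threshold peaks. Promoter regions had it in 25 of 1224 (2.04%). These letters overlap with A and T content, and no test was made between classes.

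Near-start intronic regions were counted in the genes of 12 lists of pathways and classes. A gene counted as a host where the summit lay in its intron, even if the nearest start was another gene's. Among the regions named below, that was so for drk, pnt, br, Hr4, EcR, brm, kis, HmgD, wit, fra and Antp. The share of genes hosting a region was set against 2.96% of all protein-coding genes and 14.5% of protein-coding genes of at least 10000 bp, since the hosts are long, with a median length of 17210 bp over the 482 regions. The interval included the share of the long genes in 10 of the 12 lists, and no test between lists was made. The RNA-binding regulators had the highest share, 11 of 27 (40.7%, interval 22.4 to 61.2%). Their median length was 37561 bp, against 20617 bp over the protein-coding genes of at least 10000 bp. mub, a KH-domain RNA-binding protein gene, had 361 in the pooled list, 151 in replicate 1 and 218 in replicate 2, and brat, which encodes a translational repressor, had 257 (147 and 109). pum, another translational repressor gene, had 99.5 (58.3 and 45.2). The splicing and stability factors ps, Rbp9, Sxl, elav, bru2 and heph and the genes shep and Hrb27C had 52.7 to 87.6. The regions given for mub, brat, pum and shep were in both replicates' thresholded lists, and that of ps in replicate 1's alone. Those given for Rbp9, Sxl, elav, Hrb27C, bru2 and heph were in neither list, and that of Hrb27C had no ranked peak in replicate 2. Of these 11 genes, 5 had a signal above the median of 81.2 of all near-start intronic regions (mub, brat, pum, ps and shep).

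Receptor tyrosine kinase and Ras genes had a region in 8 of 35 (22.9%, interval 10.4 to 40.1%), beside 14.5% of long genes. The strongest was Raf. InR, the insulin receptor gene, had 196 (111 and 81.6), and ths, a fibroblast growth factor ligand gene, had 178 (97.2 and 74.2). The adaptor gene drk had 164 (91.2 and 69.5). The ETS factor genes aop, a repressor, and pnt, an activator, had 163 (87.7 and 71.6) and 116 (73.0 and 41.9). sty, which encodes an antagonist of the pathway, had 96.6 (39.2 and 58.8), and Pvf3, a ligand gene, had 82.2 with 24.3 in replicate 1 and no ranked peak in replicate 2. The region of pnt was in replicate 1's thresholded list alone, that of sty in replicate 2's alone and that of Pvf3 in neither. The other 27 genes of the list held none.

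Nuclear receptor and ecdysone genes had a region in 5 of 26. They were br at 99.4 (48.9 and 53.0), Hr4 at 94.6 (23.5 and 70.4), the ecdysone receptor gene EcR at 80.7 (38.0 and 47.2), the coactivator gene tai at 62.1 (30.1 and 28.5) and Hnf4 at 54.3 (34.7 and 15.3). Only that of br was in both replicates' thresholded lists. Those given for Hr4 and EcR were in replicate 2's list alone, and those of tai and Hnf4 in neither. Polycomb and trithorax group genes had one in 5 of 30, with Trl highest, then ph-p, a Polycomb complex gene, at 126 (66.8 and 57.3). The remodeller genes brm and kis had 64.3 and 46.6. The region of brm was in replicate 1's thresholded list alone and that of kis in neither. In the chromatin architecture list, the 4 of 24 were HmgZ and HmgD through 1 shared region, Adf1, and the HMG-box gene Dsp1 at 72.8, which had 38.5 in replicate 1 and no ranked peak in replicate 2. The region of Dsp1 was in neither thresholded list. BMP, Wnt and Hedgehog genes had one in 5 of 39, among them the BMP receptor gene wit at 193 (84.3 and 110) and its transcription factor gene Mad at 191 (94.1 and 109).

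Mesoderm, muscle and adhesion genes had a region in 4 of 28, with signals from 130 in rhea, the talin gene, to 200 in zfh1, a zinc-finger and homeodomain factor gene. The muscle adhesion gene kirre had 134 (66.9 and 68.9). Axon guidance genes had 4 of 29, at 69.3 to 114, with fra, a netrin receptor gene, highest. The region of fra was in replicate 1's thresholded list alone. Small GTPase and cytoskeleton genes had 3 of 26, with the cofilin gene tsr at 181 (105 and 74.9). In the Notch list it was 1 of 20, the ubiquitin ligase gene neur at 139 (63.0 and 71.2). In the eye and antenna list it was 1 of 21, Antp at 58.3 (36.0 and 21.4), in neither replicate's thresholded list. The 88 cytosolic ribosomal protein genes, with a median length of 1326 bp, held no near-start intronic region, a share of at most 4.11% by the exact interval, while 36 of the 88 had a promoter region.

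**Figure D5:**
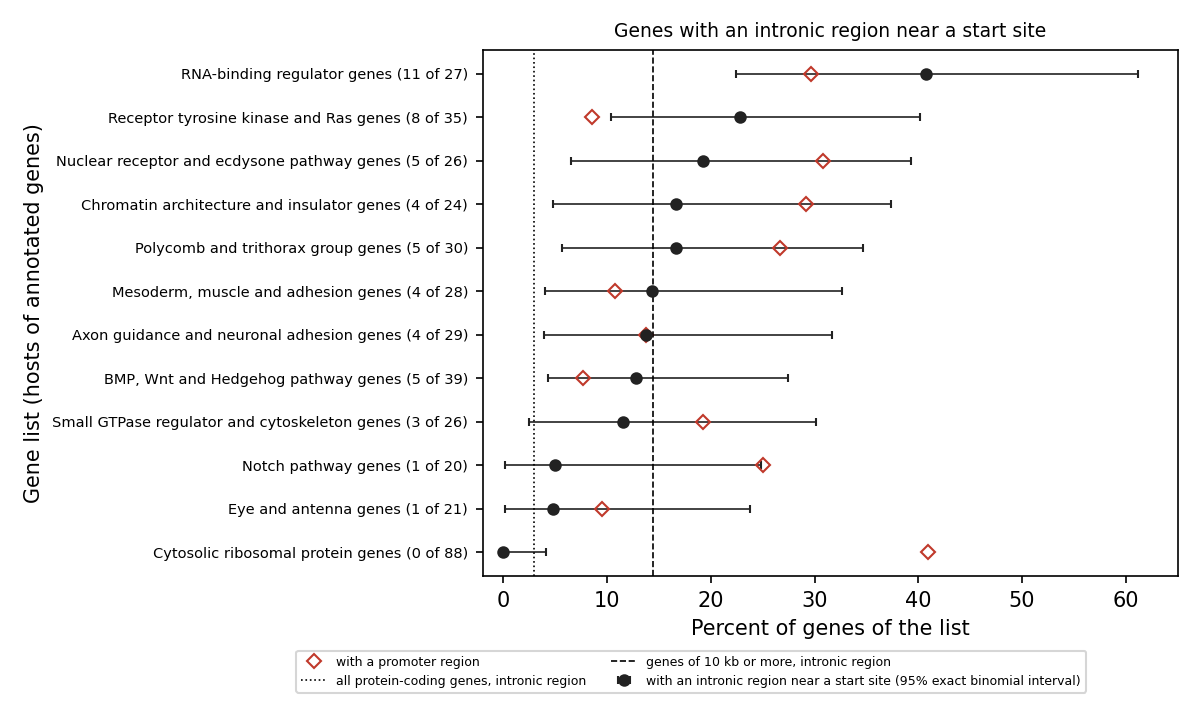
Share of genes with a near-start intronic region in each of 12 gene lists (filled points, percent, with 95% exact binomial intervals) and share with a promoter region (open diamonds). The dotted line is the share over all protein-coding genes, 2.96%, and the dashed line that over protein-coding genes of at least 10000 bp, 14.5%. RNA-binding regulators stand highest at 40.7%, and ribosomal protein genes at 0%.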

How the data were processed

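The deposited files analysed are lists of peaks on dm6, per the labels: ranked and thresholded lists for each replicate and for both together, and a conservative list. The sources used here do not give the aligner or the peak caller. The deposited signal is the authors' enrichment value per peak, and the deposited score is their IDR score per peak. Reads per library are unknown, so precision from depth could not be given, and control libraries named in the labels were not analysed here.

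Rows of the thresholded and conservative lists overlapping by at least 1 bp were merged. Rows of the ranked lists, and so the sub-threshold peaks, were not merged. Sub-threshold peaks that overlap a kept region were not removed. Genes came from the Ensembl release 115 annotation without transposable elements, and sequence from the RefSeq copy of the same assembly. A region counts as found in a replicate where it overlaps a peak of that replicate's list, and its replicate signal is the highest of the overlapping ranked peaks. Shares have exact binomial (Clopper-Pearson) 95% intervals, and no test was run over regions. Named regions are the 20 strongest, hosts with 3 or more, the extremes of the replicate ratio, the regions next to each limit and gene list hosts. The regions, lists and motifs were chosen with earlier results of these data known. Scripts (Python 3.11.15, numpy 2.4.6, scipy 1.17.1) were tested on simulated data.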

Additional observations from a re-analysis of the deposited data

How the results depend on the processing

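The 9 summary results were recomputed under other settings, which gave 99 values, and 75 of them stayed within the interval of the reported value (counts: within 1.5 times). The first-intron share was among those that stayed within it under every setting run. Using each replicate's own list alone gave 261 to 313 regions, a median signal of 57.4 to 57.6, a conservative-list share of 82.4 to 91.6%, an A and T content of 67.4 to 68.3%, a TATAAA share of 19.5 to 25.6% and a host promoter share of 17.6 to 20.8%. With the conservative list, the median signal was 94.7, the share in both lists 50% and the host promoter share 22.0%. Regions above the median signal of all regions numbered 236, with a median of 128, 77.5% in both lists, 97.5% in the conservative list, 68.8% A and T and a host promoter share of 15.7%. Regions more than 1000 bp from a start numbered 285, and an inner limit of 250 bp gave a host promoter share of 43.7%. Regions between that limit and 500 bp are promoter regions by the definition above, so this value can count a region for its own host. With start sites of protein-coding genes only, 90.1% had the host's start nearest. Windows reaching 100 bp either side had 64.5% A and T and TATAAA in 34.4%. The causes were not tested. Presence in both replicates' lists could not be computed for 1 replicate's list, nor the conservative share for the conservative list. No paired analysis was possible because all samples belong to 1 group.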
